A study of Mus musculus with 8 samples.

Results

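The Hedgehog (Hh) pathway has its own receptor, co-receptors, transducer, Gli transcription factors and feedback inhibitors, and the genes for 10 of these, Ptch1, Hhip, Gas1, Cdon, Boc, Smo, Sufu, Gli1, Gli2 and Gli3, were followed across 8 arrays of mouse embryoid bodies. Members were all non-control probe sets that the platform annotation assigns to one of these genes alone, which gave 27 of the 45101 probe sets of the Affymetrix Mouse430_2 array, for 10 of the 18193 genes it names by a probe set of their own. A probe set is a group of short oligonucleotides read together as 1 intensity for a transcript. Ptch1, Gas1, Boc, Smo, Sufu and Gli3 had 3 probe sets each, Hhip had 4, Cdon and Gli2 had 2 and Gli1 had 1.

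Embryonic stem cells were left to aggregate into embryoid bodies for 2 days in suspension and were then given 500 nM retinoic acid (RA), which steers them to a neural fate. The agonist group (replicates 5 to 8) received RA and 1 μM of an Hh agonist (HH-Ag), which switches the pathway on, and the RA group (replicates 1 to 4) received RA alone. The labels name YFP3.1 cells with constitutive expression of FLAG-tagged Gli1, collected after 3 days of differentiation, for 7 of the 8 samples. For agonist replicate 7 they give neither the line nor the time. As labelled, all 4 RA samples and agonist replicates 5, 6 and 8 therefore carry the Gli1 transgene, an extra source of Gli1 protein, whereas a shared line and time for all 8 arrays is not established. The design text speaks of biological replicates, but whether each sample was a culture of its own is not said, so a p-value here reflects sample-to-sample spread that may be technical.

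Without Hh ligand, the receptor Ptch1 holds the membrane protein Smo inactive, Sufu restrains the Gli factors, and Gli3 in particular is trimmed to a repressor. When the pathway is on, Smo acts through the primary cilium to release full-length Gli2 and Gli3 as activators, and these induce Gli1, Ptch1 and Hhip. Ptch1 and Hhip bind the ligand and limit its spread, whereas Gas1, Cdon and Boc are cell surface proteins that help Ptch1 bind it. In the neural tube, Ptch1, Hhip and Gli1 mark cells close to the Hh source, while Gas1, Cdon, Boc and Gli3 are known as genes of more dorsal cells.

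Intensities were compared as log2(intensity + 16) with limma, which estimates the spread of each probe set with help from all others. A change was called where the p-value, after Benjamini-Hochberg adjustment across the 27022 probe sets tested, was under 0.05. Tested probe sets were those with a mean above the 40th percentile (an intensity of 15.1). Of the 27 member probe sets 19 were bright enough to be tested and 8 were not. Ptch1 rose by all 3 of its probe sets. Gas1 and Gli3 each fell by 1 tested probe set, and the other 14 tested probe sets did not pass. Among all tested probe sets 1.14% were called higher and 0.733% lower with the agonist. The median change of the 19 tested members was -0.010 on the log2 scale, beside -0.0047 over all tested probe sets. In RNA of whole embryoid bodies, fewer cells of a type and less RNA per cell cannot be told apart.

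**Figure D1:**
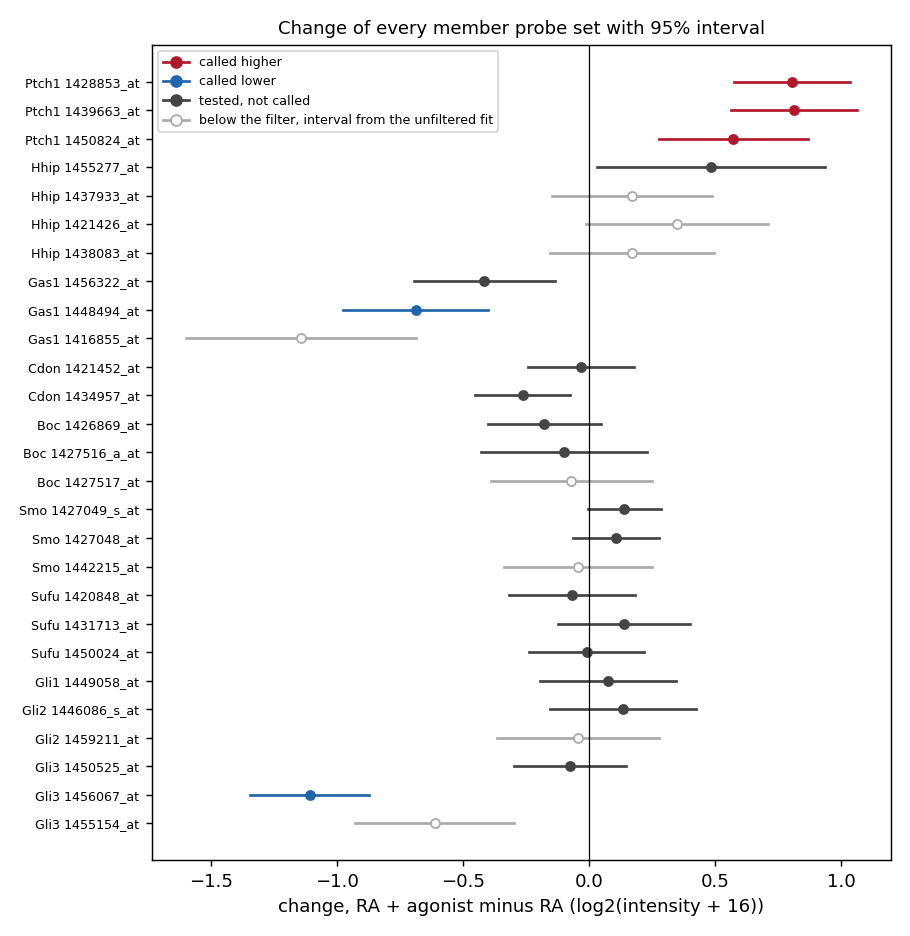
Change of each of the 27 member probe sets, RA plus agonist minus RA, on the log2(intensity + 16) scale (points) with its 95% interval from limma (lines). The 3 Ptch1 probe sets lie between 0.57 and 0.81, the 4 Hhip probe sets lie right of 0, the 3 Gas1 probe sets lie left of 0, and the Gli3 probe sets are spread from -1.11 to -0.076. Open points are probe sets below the filter, with the interval from a fit without it.

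Array-wide levels were close, with median intensities of 21.7 to 22.6 in the agonist group and 21.6 to 22 in the RA group. The arrays were hybridised on 2 days. Chip lot and scan date split the arrays in the same way, so day, lot and scan cannot be told apart. Day 1 held agonist replicate 5 and RA replicate 1, both washed on fluidics station 1. Day 2 held the other 6, with the agonist arrays on station 2 and the RA arrays on station 1, so that on day 2 station and treatment cannot be told apart. Markers of neurons differed between the groups: 12 of 17 tested probe sets, from all 8 genes of the list, were higher with the agonist, and the list's summed intensity was 2632 to 2992 in the agonist group and 989 to 1095 in the RA group. Of neural progenitor markers 1 of 9 tested probe sets, of Fabp7 (log2 change 0.73), was higher and none lower. Fabp7 averaged 51.1 with the agonist and 24.6 with RA alone. The list's sums, 992 to 1106 in the agonist group and 1008 to 1135 in the RA group, were mostly Sox2 and Nes. Sox1 was below the filter. Of pluripotency markers 2 of 11, of Klf2 (log2 change -0.45) and Dppa4 (-0.38), were lower and none higher, and the list's median log2 change was -0.19. Its sums, 4953 to 5237 with the agonist and 4834 to 5483 with RA alone, were mostly Dppa5a, which averaged 3944 with the agonist and 3962 with RA alone. No tested probe set of the mesoderm (6), endoderm (6) or neural crest (4) marker lists passed. Their sums were 304 to 319, 208 to 218 and 227 to 290 in the agonist group, against 312 to 316, 181 to 219 and 215 to 274 in the RA group, and Foxc2, Afp, Foxa3, Ets1, Foxd3 and Sox9 were below the filter. The part of these cell types in the changes of Ptch1, Gas1 and Gli3 was not tested.

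The genes with a called change were Ptch1, Gas1 and Gli3, all on mouse chromosome 13, and the sequence just upstream of a start site of each is shown because Gli factors are known to bind near such starts. RefSeq (GRCm38.p6) places Ptch1 at chr13:63508328-63573460, Gas1 at chr13:60174405-60177535 and Gli3 at chr13:15463723-15730026. The windows hold the 250 bases before a RefSeq start and are read 5′ to 3′ on the gene's strand. They are chr13:63565736-63565985 (minus strand) for Ptch1, chr13:60177536-60177785 (minus strand) for Gas1 and chr13:15463473-15463722 (plus strand) for Gli3. Capitals mark GGGTGG, the core letters of the Gli binding motif, on either strand.
Ptch1: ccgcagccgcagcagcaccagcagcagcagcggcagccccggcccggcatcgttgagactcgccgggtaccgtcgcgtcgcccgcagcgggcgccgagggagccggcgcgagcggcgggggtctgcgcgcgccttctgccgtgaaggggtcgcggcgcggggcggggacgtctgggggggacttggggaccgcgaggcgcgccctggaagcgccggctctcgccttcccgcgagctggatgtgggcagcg
Gas1: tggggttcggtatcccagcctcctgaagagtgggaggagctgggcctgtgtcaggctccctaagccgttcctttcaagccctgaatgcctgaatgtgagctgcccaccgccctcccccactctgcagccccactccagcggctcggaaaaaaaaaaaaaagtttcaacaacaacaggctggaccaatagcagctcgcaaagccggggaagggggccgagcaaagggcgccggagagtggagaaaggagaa
Gli3: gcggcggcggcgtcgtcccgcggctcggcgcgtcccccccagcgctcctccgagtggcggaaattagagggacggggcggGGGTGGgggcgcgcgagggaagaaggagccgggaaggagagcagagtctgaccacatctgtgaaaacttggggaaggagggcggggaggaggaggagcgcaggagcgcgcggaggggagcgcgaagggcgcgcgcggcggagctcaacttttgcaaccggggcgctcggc
The full Gli motif TGGGTGGTC was searched on both strands, and its letters include the core. It was in none of the 8 member windows analysed here (those of Ptch1, Hhip, Gas1, Cdon, Smo, Sufu, Gli2 and Gli3), and in 0.225% of all 32851 windows of the same length. A motif this rare would seldom occur in 8 windows, and bases outside the windows were not searched, so its absence is not informative. The core was in 4 of the 8 member windows, those of Hhip, Smo, Gli2 and Gli3, and in 28.1% of all windows. The Gli3 core started 170 bases before the start, and the Ptch1 and Gas1 windows held none. The Ptch1 window belongs to an internal start, 7725 bases from the outer end of the RefSeq gene. The windows of Cdon (30548 bases), Gli2 (786) and Hhip (52) also lay away from the outer end of their gene.

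Ptch1, the receptor and the best known direct target of the pathway, was higher with the agonist by each probe set. By 1428853_at, the probe set with the highest Ptch1 intensities, it had 463, 535, 635 and 429 in agonist replicates 5 to 8, against 259, 327, 242 and 323 in RA replicates 1 to 4. The lowest agonist array (429) was above the highest RA array (327). The means were 515 ± 91.2 with the agonist and 288 ± 43.7 with RA alone (SD, n = 4 each), a ratio of 1.79, and the change on the log2 scale was 0.80 (95% interval 0.57 to 1.03, limma adjusted p = 0.000253).

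By 1439663_at, Ptch1 had 78.3, 99.8, 90.5 and 90.8 with the agonist, against 44.2, 60.2, 34.5 and 40.5 with RA alone. The groups did not overlap here either. The ratio of means was 2.00 and the log2 change 0.81 (95% interval 0.56 to 1.06, limma adjusted p = 0.000559). By 1450824_at, the dimmest, Ptch1 had 30.5, 38.7, 47.3 and 31.6 with the agonist, against 24.6, 19.98, 12.5 and 21.8 with RA alone. All agonist arrays again lay above all RA arrays. The ratio of means was 1.88 and the log2 change 0.57 (95% interval 0.28 to 0.87, limma adjusted p = 0.0420). The call for 1450824_at was lost under 10 of 18 other settings, among them without RA replicate 2, 3 or 4 or agonist replicate 6, 7 or 8 (adjusted p of 0.0334 to 0.616 over the settings), while the direction held in all of them.

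No Ptch1 probe set passed a test of its change against the others. Differences between a probe set and the rest of its gene were tested with limma's diffSplice, in which 0.349% of all 14043 probe sets of genes with at least 2 tested probe sets passed. For Ptch1 the largest departure was -0.24 on the log2 scale, of 1450824_at (95% interval -0.50 to 0.026 from limma on the difference per array, diffSplice adjusted p = 0.890). With 1 added in place of 16, the log2 changes were 0.84 (1428853_at), 1.01 (1439663_at) and 0.90 (1450824_at).

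Ptch1 was higher with the agonist on both days. On day 1, where agonist replicate 5 and RA replicate 1 shared a station, the log2 difference was 0.80 for 1428853_at, 0.65 for 1439663_at and 0.20 for 1450824_at, with 1 array per group and no test. On day 2 alone it was 0.80 (limma adjusted p = 0.00229), 0.87 (0.00291) and 0.70 (0.0428). With the station as a block, which rests on agonist replicate 5 against the RA arrays, the log2 changes were 0.67, 0.65 and 0.39 and none passed (limma adjusted p = 0.136, 0.218 and 0.616).

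Hhip, which binds Hh ligand at the cell surface and is the other induced inhibitor, was dim and not called. By 1455277_at, the probe set that could be tested, it had 30.9, 42.3, 41.5 and 22 with the agonist, against 4.73, 35.2, 25.1 and 19.9 with RA alone. The groups overlapped, with RA replicate 2 (35.2) above 2 of the agonist arrays. The log2 change was 0.48 with a 95% interval of 0.031 to 0.93 (limma adjusted p = 0.367). Much of that value came from RA replicate 1 (4.73): without it the log2 change was 0.23, and on day 2 alone it was 0.25 (limma adjusted p = 0.633 and 0.686). By 1421426_at, below the filter, Hhip had 22.5, 5.01, 16.5 and 21.6 with the agonist, against 7.47, 11, 7.53 and 9.26 with RA alone. There, 3 agonist arrays lay above all RA arrays and 1 lay below them. The remaining 2 probe sets had log2 changes of 0.17 each, and in a fit without the filter, where 1.04% of all 45037 probe sets passed in either direction, none of the 3 dim Hhip probe sets was called (limma adjusted p = 0.544 to 0.809).

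**Figure D2:**
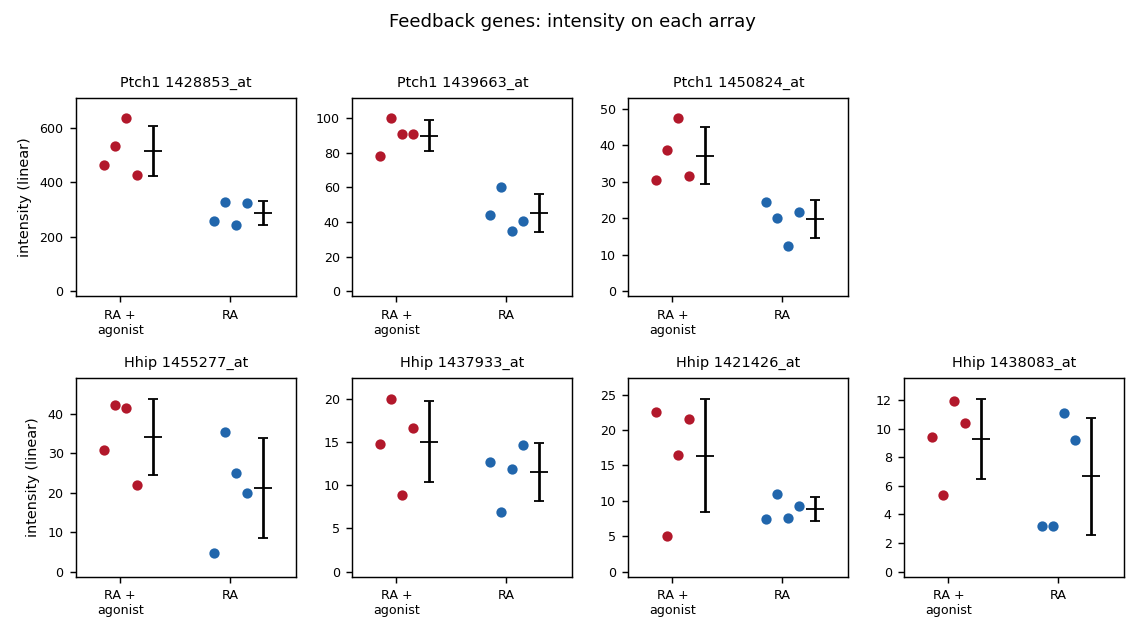
Linear intensity of each array for the Ptch1 (top row) and Hhip (bottom row) probe sets, with the RA plus agonist group left of the RA group. Points are arrays, horizontal ticks are means and bars are ±1 SD (n = 4 each). For Ptch1 the groups do not overlap in any panel, and for Hhip they overlap in all 4.

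Among the co-receptors, Gas1, a membrane-anchored protein that binds Hh ligand, was lower with the agonist. By 1448494_at it had 7.49, 11.4, 13.2 and 9.44 with the agonist, against 23.4, 31.6, 27.4 and 23.6 with RA alone. The highest agonist array (13.2) lay well below the lowest RA array (23.4). The means were 10.4 ± 2.45 with the agonist and 26.5 ± 3.89 with RA alone (SD, n = 4 each), 2.56-fold lower, and Gas1 fell by 0.69 on the log2 scale (95% interval -0.98 to -0.40, limma adjusted p = 0.00940). The agonist mean was under the filter level of 15.1, where the pseudocount weighs most: adding 1 gave a log2 change of -1.29 and adding 64 gave -0.28, called in both. Without RA replicate 2 the adjusted p was 0.0568, and on day 2 alone it was 0.0507, with log2 changes of -0.63 and -0.67. On day 1 the log2 difference was -0.75, and with the station as a block the change was -0.85 (limma adjusted p = 0.126).

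By 1456322_at, Gas1 had 21.4, 20.9, 35.0 and 27.0 with the agonist, against 49.3, 43.4, 34.4 and 33.3 with RA alone. Agonist replicate 7 overlapped RA replicates 3 and 4, and the log2 change of -0.42 (95% interval -0.70 to -0.14) did not pass (limma adjusted p = 0.155). By 1416855_at, which was below the filter, Gas1 had 8.77, 1.98, 1.6 and 0.696 with the agonist, against 36.3, 35.4, 6.71 and 35.4 with RA alone. Of the RA arrays, replicate 3 stood apart from the other 3 and lay below agonist replicate 5. In the fit without the filter its log2 change was -1.15 (95% interval -1.60 to -0.69, limma adjusted p = 0.00701), and -1.44 without RA replicate 3 (adjusted p = 2.36e-05). That fit called 5 member probe sets in all, this one in place of Ptch1 1450824_at (adjusted p = 0.0601).

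Cdon and Boc, related immunoglobulin-family co-receptors, were not called by any probe set. By 1434957_at, Cdon had 75, 74.1, 72.9 and 72.5 with the agonist, against 81.3, 91.8, 91.5 and 103 with RA alone. The agonist arrays were nearly equal and all below the RA arrays, yet the log2 change of -0.26 (95% interval -0.45 to -0.077) did not pass (limma adjusted p = 0.190). The other Cdon probe set, 1421452_at, overlapped between the groups, at 85.6 ± 11.2 with the agonist and 87.8 ± 8.31 with RA alone (SD, n = 4 each; log2 change -0.033, 95% interval -0.24 to 0.18). By 1426869_at, Boc had 33.2, 31.3, 29.4 and 35.6 with the agonist, against 36.3, 37.5, 44.5 and 36.7 with RA alone, again without overlap. Its log2 change was -0.18 (95% interval -0.40 to 0.045, limma adjusted p = 0.546). The other 2 Boc probe sets overlapped, with log2 changes of -0.10 and -0.071.

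Counted over the 19 tested members, the groups did not overlap for 7 probe sets. The agonist arrays lay above for 3, those of Ptch1, and below for 4, which were Gas1 1448494_at, Cdon 1434957_at, Boc 1426869_at and Gli3 1456067_at. Among all tested probe sets 3.56% lay wholly above and 3.51% wholly below.

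**Figure D3:**
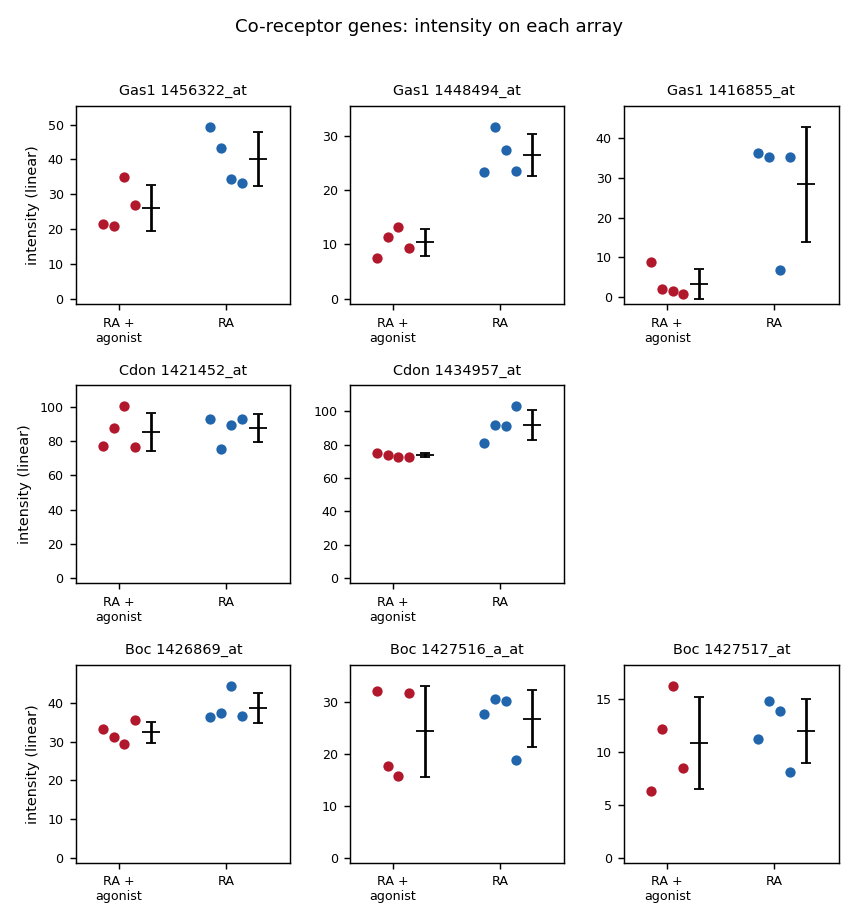
Linear intensity of each array for the probe sets of Gas1, Cdon and Boc, with the RA plus agonist group left of the RA group. Points are arrays, horizontal ticks are means and bars are ±1 SD (n = 4 each). The groups are apart for Gas1 1448494_at (7.49 to 13.2 with the agonist, 23.4 to 31.6 with RA alone), and RA replicate 3 is the low RA point of Gas1 1416855_at.

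Smo, the membrane protein that carries the signal inward, differed little. By 1427049_s_at it had 427, 404, 451 and 389 with the agonist, against 368, 417, 384 and 344 with RA alone, so that the groups overlapped. The log2 change was 0.14 (95% interval -0.0060 to 0.28, limma adjusted p = 0.435), and it was 0.11 (95% interval -0.067 to 0.28) by 1427048_at. The dim probe set 1442215_at was at 4.54 to 11.1 with the agonist and 6.91 to 10.9 with RA alone, below the filter.

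Sufu, the cytoplasmic inhibitor of the Gli factors, had 3 tested probe sets and none passed. Their means were 70.8 ± 9.16, 74.1 ± 8.96 and 54.4 ± 7.63 with the agonist, against 75.4 ± 14.5, 66.9 ± 17 and 54.8 ± 6.85 with RA alone (SD, n = 4 each). The log2 changes were -0.068, 0.14 and -0.010, on both sides of 0, with 95% intervals that together ran from -0.32 to 0.40. The change of 0.14, by 1431713_at, was 0.051 to 0.27 with 1 array left out, the ends being without RA replicate 1 and RA replicate 4.

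Gli1, an activator that the pathway itself induces, has 1 probe set, which was dim. By 1449058_at it had 24.3, 16.4, 23.9 and 20.2 with the agonist, against 19.5, 19.3, 17.5 and 20.5 with RA alone. The agonist arrays surrounded the RA arrays. The log2 change was 0.074 (95% interval -0.19 to 0.34, limma adjusted p = 0.874). Adding 16 compresses changes at this intensity, and adding 1 in its place gave a log2 change of 0.12 (limma adjusted p = 0.879). Whether the probe set reads the tagged transcript could not be checked, since the probe sequences were not analysed here.

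Gli2, the main activator upstream of Gli1, had 103, 80.5, 78.9 and 87.0 with the agonist, against 84.7, 63.7, 112 and 59.4 with RA alone, by 1446086_s_at. The RA arrays spanned the agonist arrays, and the log2 change was 0.13 (95% interval -0.16 to 0.42, limma adjusted p = 0.761). The other Gli2 probe set, 1459211_at, was near 0, at 0 to 7.68 with the agonist and 3.26 to 6.87 with RA alone.

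Gli3, the Gli factor with the strongest repressor form, gave different answers by probe set. By 1456067_at it had 13.8, 11.3, 12.9 and 11.4 with the agonist, against 43.4, 47.9, 44.3 and 44.8 with RA alone. The 2 groups were tight and far apart, at 12.3 ± 1.19 with the agonist and 45.1 ± 1.98 with RA alone (SD, n = 4 each), 3.66-fold lower. This Gli3 probe set fell by 1.11 on the log2 scale (95% interval -1.35 to -0.87, limma adjusted p = 6.63e-06).

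By 1455154_at, below the filter, Gli3 had 8.20, 3.34, 12.5 and 5.92 with the agonist, against 25.3, 19.3, 16.6 and 17.8 with RA alone. All agonist arrays lay below all RA arrays, 2.64-fold lower by the means, and without the filter the log2 change of -0.61 (95% interval -0.93 to -0.30) had a limma adjusted p of 0.0547. By 1450525_at, which gave the highest Gli3 intensities, it had 142, 150, 152 and 120 with the agonist, against 143, 142, 190 and 127 with RA alone. Here the groups overlapped almost fully, and the log2 change was -0.076 (95% interval -0.30 to 0.15, limma adjusted p = 0.836).

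The 2 tested Gli3 probe sets differed from each other by 1.03 on the log2 scale in their change (95% interval 0.74 to 1.32 from limma on the difference per array). The adjusted p was 0.000636 by diffSplice and 0.0119 by limma on the difference, by which 31 of the 14043 probe sets passed. Of the 16 member probe sets in that test, from 7 genes, these were the 2 that passed, beside 0.349% of all 14043 by diffSplice. With 2 tested Gli3 probe sets, both calls are the same contrast seen from either side. The agonist mean of 1456067_at (12.3) was under the filter level, and its RA mean (45.1) was above it. The third Gli3 probe set, 1455154_at, was below the filter and not in this test, though it also fell (log2 change -0.61). For Gas1 the 2 tested probe sets differed by 0.27 (95% interval -0.024 to 0.57, diffSplice adjusted p = 0.845) and for Cdon by 0.23 (95% interval -0.037 to 0.50, diffSplice adjusted p = 0.814). The annotation gives different source sequences for the Gli3 probe sets, a RefSeq transcript for 1450525_at and expressed sequence tags for the other 2, and which transcript forms each one reads was not tested.

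The fall of Gli3 1456067_at was also seen on both days. Its log2 difference was -1.0 on day 1 (1 array per group) and its change -1.15 on day 2 alone (limma adjusted p = 0.000111). With the station as a block, which rests on agonist replicate 5 against the RA arrays, the change was -1.04. Station 2 held no RA array, so station and treatment could not be told apart there. This probe set was called in all 18 other settings in which it was tested, with limma adjusted p of 3.84e-06 to 0.00884. Adding 1 gave a log2 change of -1.79 and adding 64 gave -0.52, the agonist mean being under the filter level.

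**Figure D4:**
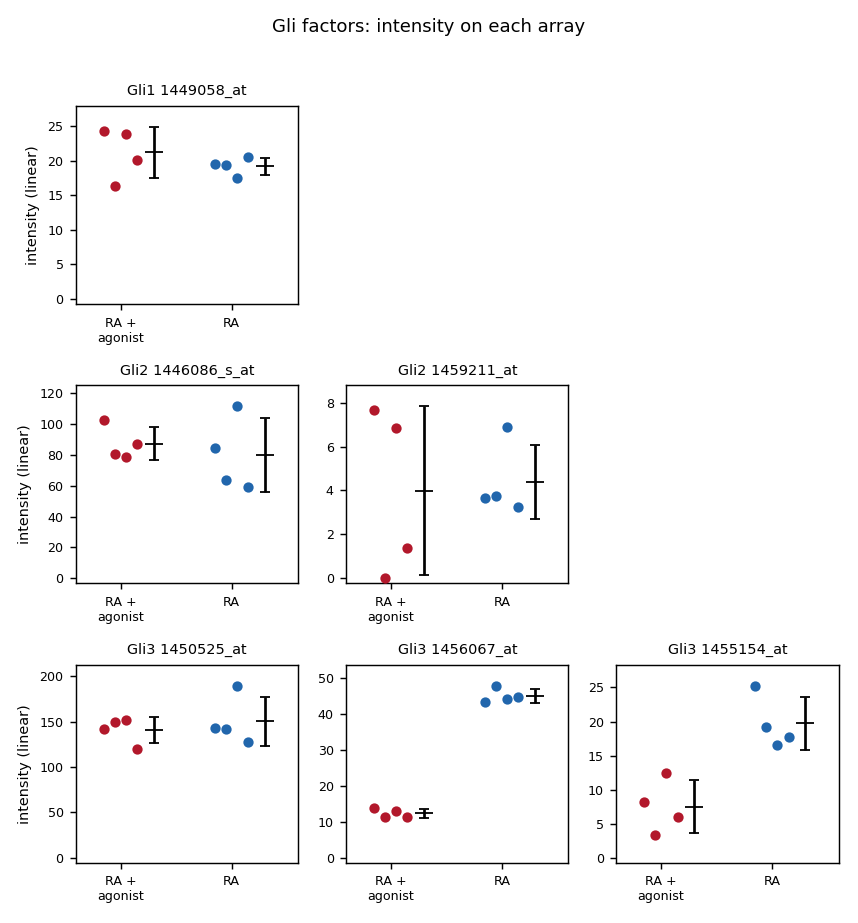
Linear intensity of each array for the probe sets of Gli1, Gli2 and Gli3, with the RA plus agonist group left of the RA group. Points are arrays, horizontal ticks are means and bars are ±1 SD (n = 4 each). The Gli3 groups overlap by 1450525_at and are apart by 1456067_at (11.3 to 13.8 with the agonist, 43.4 to 47.9 with RA alone) and 1455154_at.

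Other genes of the pathway, taken from 4 lists of 50 genes in all, mostly did not pass. Of the 90 tested probe sets, from 41 genes, 1 was higher and 1 lower, beside the 1.14% and 0.733% called among all tested probe sets. Their median log2 change was 0.021. Another 5 genes had only probe sets below the filter and 4 were not analysed here.

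Among ligands and their release factors none of 8 tested probe sets passed (median log2 change 0.046). Shh, the ligand made by the floor plate, had a log2 change of 0.093 (95% interval -0.20 to 0.39), Disp1, which releases the ligand from cells, 0.11, and the ligand carriers Scube3 and Scube1 -0.19 and -0.032.

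Of other receptors and Smo partners 1 of 12 tested probe sets was lower and none higher (median log2 change 0.094). That was Lrp2, also called megalin, an endocytic receptor that binds Shh. By 1452320_at Lrp2 had 22, 24.4, 27.0 and 34.2 with the agonist, against 44.8, 41.6, 51.2 and 41.8 with RA alone. The groups did not overlap, and Lrp2 fell by 0.51 on the log2 scale (95% interval -0.75 to -0.27, limma adjusted p = 0.0266). This call was lost under 8 of 19 other settings, with adjusted p of up to 0.168, including without RA replicate 1, 2 or 3 or agonist replicate 5, 6 or 7. The Lrp2 probe sets 1427133_s_at and 1445901_at were below the filter. Their log2 changes went opposite ways, -0.32 and 0.13, and neither passed without the filter (limma adjusted p = 0.490 and 0.859). Iqce and Evc2, proteins of a complex at the base of the cilium that acts with Smo, had log2 changes of 0.16 and 0.11. Arrb2, a beta-arrestin, had -0.28 by 1426239_s_at (limma adjusted p = 0.293) and 0.050 by 1451987_at. The ubiquitin ligase Mgrn1 had 0.23 by 1445304_at (limma adjusted p = 0.331), against -0.054 by 1431285_at and -0.035 by 1454645_at.

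None of 50 tested probe sets of cilium-linked and cytoplasmic regulators passed (median log2 change 0.014). Among the brightest, the casein kinases Csnk1d and Csnk1a1, which phosphorylate Gli proteins, had log2 changes of -0.11 and -0.10. By its other tested probe sets Csnk1a1 had -0.20 (1428537_at) and 0.037 (1437923_at). Spop, which directs Gli proteins to degradation, had 0.091, and Prkar1a, a regulatory subunit of protein kinase A, 0.14. Dzip1, a cilium protein, passed by 1452793_at on day 2 alone (limma adjusted p = 0.0410) but not over all 8 arrays (log2 change 0.54, adjusted p = 0.214).

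Of 20 tested probe sets of genes known as Hh targets in other tissues, 1 was higher and none lower (median log2 change -0.014). That was Rab34, a small GTPase needed for cilium formation. By 1416591_at Rab34 had 348, 385, 389 and 381 with the agonist, against 215, 311, 274 and 298 with RA alone. Every agonist array lay above every RA array, with means of 376 ± 18.7 with the agonist and 275 ± 42.3 with RA alone (SD, n = 4 each), and a log2 change of 0.44 (95% interval 0.25 to 0.63, limma adjusted p = 0.0123). The call was lost without agonist replicate 6 and under 2 further settings. By its second probe set, 1416590_a_at, Rab34 had 118 ± 11 with the agonist and 90.5 ± 6.85 with RA alone (SD, n = 4 each; log2 change 0.33, limma adjusted p = 0.0702). By the brightest probe set of each, the cyclins Ccnd1 and Ccnd2, which drive cell cycle entry, had log2 changes of 0.13 and -0.056. Ccnd1 had -0.037 and -0.052 by its other tested probe sets. Those of Ccnd2 had -0.39 to -0.027, none of them called (lowest limma adjusted p = 0.301). The proliferation factor Mycn had -0.021 by its brightest probe set and 0.12 and 0.059 by the others. The forkhead gene Foxf1 had 0.024.

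**Figure D5:**
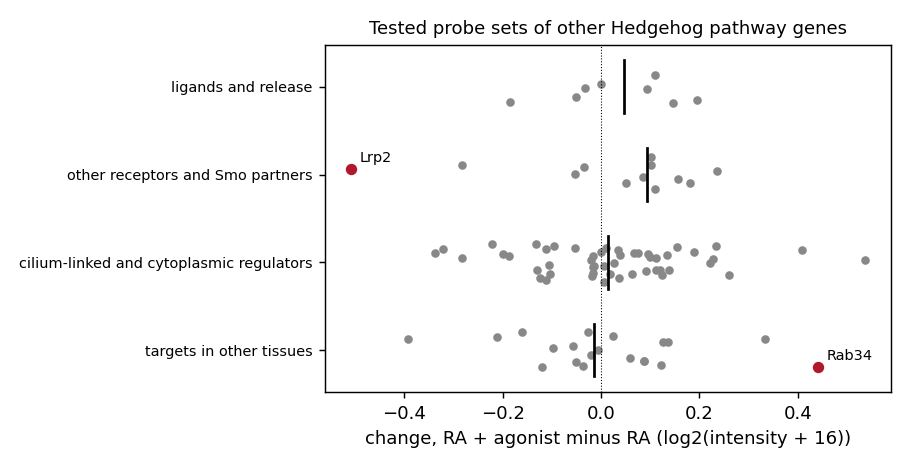
Change of each tested probe set of 4 lists of other Hedgehog pathway genes, RA plus agonist minus RA, on the log2(intensity + 16) scale. Points are probe sets, black bars are list medians, and the called probe sets, of Lrp2 (-0.51) and Rab34 (0.44), are the larger labelled points.

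The genes whose profiles over the 8 arrays lay closest to those of the called members were found by the mean absolute difference per array in log2 units, after each profile was centred on its own mean, over 13665 genes. Ptch1 (1428853_at) was closest to Tubb3, the neuronal beta-tubulin gene (mean difference 0.11), Ntn1, which encodes the guidance protein netrin (0.12), and Hpcal1, a calcium sensor gene (0.13). Gas1 (1448494_at) was closest to Gm13261 (0.091), Zfp36l1, which encodes an RNA-binding protein that promotes mRNA decay (0.094), and Cpm, a carboxypeptidase gene (0.095). Gli3 (1456067_at) was closest to the gap junction gene Gja1 (0.11), Cyp26a1, the enzyme that degrades retinoic acid (0.13), and the progenitor gene Pax6 (0.13). Their log2 changes were 0.67 to 0.99 for the Ptch1 set, -0.74 to -0.52 for the Gas1 set and -1.06 to -0.87 for the Gli3 set, a direction that the choice by likeness on the same arrays fixes.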

How the data were processed

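RNA of 8 samples was measured on 1-colour Mouse430_2 arrays. Values are linear intensities as the authors deposited them. Their probe summary, background correction and normalization were kept as they stood, the steps being not given in the sources used here. No detection calls were used. Days, chip lots, scan dates and stations are per the file headers of the instrument records. Groups and replicate numbers came from sample titles.

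Intensities became log2(intensity + 16). The 64 control probe sets and those under the 40th percentile of mean log2 values were not tested. Gene symbols came from the platform annotation, updated by gene identifier against RefSeq (34741 of 34945 single-gene probe sets matched). Groups were compared with limma 3.58.1 in R 4.3.3 (lmFit, eBayes with an intensity trend, two-sided, Benjamini-Hochberg over all tested probe sets), and probe sets within genes with diffSplice. Both were tested on simulated data, where diffSplice exceeded its nominal error rate, so limma on per-array differences was added. Figures used matplotlib 3.10.9 in Python 3.11.15. The number of arrays limits the precision.

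Members and lists were chosen with earlier results of these data known. Text genes were every member, list genes that passed in any setting, up to 4 of the brightest others per list, and the 3 genes most like each called member. Alternatives were quantile or median normalization, adding 1 or 64, other filters, no trend, array weights, day as a block or day 2 alone, exact permutation tests and leaving out each array. The station block, the per-array differences and unfiltered fits without each array were added after seeing the data.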

Additional observations from a re-analysis of the deposited data

Results flagged for a closer look

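Of 54 sets of 4 arrays (each of the 27 probe sets in each group), 5 had 1 array far from the other 3, by the share of the group's range that the gap to that array takes; chance gives about 1 in 20. In Gas1 1416855_at, agonist replicate 5 (8.77, the other agonist arrays 0.696 to 1.98) had a gap of 0.841 of the range and RA replicate 3 (6.71, the other RA arrays 35.4 to 36.3) one of 0.968. In Sufu 1431713_at, agonist replicate 7 (87.5) had a gap of 0.918, and without it the log2 change was 0.068 in place of 0.14 (limma adjusted p = 0.871 and 0.726). RA replicate 3 was also the far array for Boc 1426869_at (44.5, gap 0.856) and Gli2 1459211_at (6.87, gap 0.868). Without it, the log2 change of Boc 1426869_at was -0.13 in place of -0.18 (limma adjusted p = 0.662 and 0.546).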

How the results depend on the processing

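No paired analysis was made, since the labels do not say whether samples of the 2 groups were paired. The replicate numbers, 1 to 4 and 5 to 8, run on across the groups. Over the 19 settings, 0 of the 5 called changes reversed. Against 3 member probe sets higher and 2 lower, with the fluidics station as a block 0 were higher and 1 was lower, and on day 2 alone 1 was lower. Over all 27022 tested probe sets, the main fit called 308 higher and 198 lower. The station block called 96 and 42 of them, and day 2 alone 192 and 74. With the filter at the 60th percentile 0 member probe sets were lower, since both lower ones were then too dim to be tested. Likewise 0 differed from the rest of their gene, against 2 otherwise and 0 with the station as a block. Leaving out each array in turn gave 2 to 3 members higher and 1 to 2 lower. Without RA replicate 2 it was 1 lower, beside 85 of all tested probe sets. Each such fit left 2 differing from the rest of their gene. In the main fit those 2 were the tested Gli3 probe sets, both sides of the same contrast. The 2 other pathway genes were 0 with the station as a block, 1 without an intensity trend, and 0 to 2 with an array left out: 0 without agonist replicate 6 and 1 without RA replicate 1, 2 or 3 or agonist replicate 5 or 7. Over single probe sets and settings, called values lost their call 15 times. Among tested probe sets that were not called, Cdon 1434957_at and Boc 1426869_at were under 0.05 by exact permutation of 4 against 4 arrays (unadjusted p = 0.0286, the smallest possible). This p restates that their groups did not overlap. Of all tested probe sets, 3.56% lay wholly above and 3.51% wholly below. Among member probe sets below the filter, unfiltered fits called Gas1 1416855_at with all arrays (limma adjusted p = 0.00701) and with any 1 left out (2.36e-05 to 0.0409). They called Gli3 1455154_at without agonist replicate 7 (0.0301) but not with all arrays (0.0547) or with another left out (0.0606 to 0.217). Causes other than the filter were not tested. Signal over background limits the 8 probe sets below the filter, of Hhip, Gas1, Boc, Smo, Gli2 and Gli3, which have no test beside the unfiltered fit.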
